A study of Mus musculus with 2 samples.

Results

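The HoxB cluster is a row of 10 homeobox genes on mouse chromosome 11, Hoxb13, Hoxb9, Hoxb8, Hoxb7, Hoxb6, Hoxb5, Hoxb4, Hoxb3, Hoxb2 and Hoxb1 in the order of their plus-strand sequence. Its chromatin was measured in limbs of mouse embryos of strain B6NCrl at day 14.5, with males and females pooled, by DNase-seq, which cuts DNA where it is not wrapped or covered and so maps open chromatin. There was 1 group with 2 biological replicates and no other tissue or treatment. The labels name neither forelimb nor hindlimb, give both replicates the same donor identifier, and list instrument models for replicate 2 only. The 10 genes were taken by name out of 21938 protein-coding genes. All peaks centred between positions 96190000 and 96372000 of chromosome 11 (mm10) were added to them, 44 of the 208965 peaks of replicate 1 and 29 of the 196870 peaks of replicate 2. The same interval held 44 of the 186293 hotspots of replicate 1 and 27 of the 181487 hotspots of replicate 2. A peak is a called site of 150 bp with a signal in the authors' own unit, and a hotspot is the called region around it with a −log10 q-value.

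Hox genes encode transcription factors that tell cells their position along the body. Genes at one end of a cluster (Hoxb1) act early and in the head and neck, and those at the other end (Hoxb13) act late and towards the tail. HOX proteins bind DNA together with the cofactors PBX and MEIS, retinoic acid acts on the clusters through paired half-sites, CDX proteins act on the trunk genes, and CTCF marks the borders of the domains into which a cluster folds. In limbs the HoxA and HoxD clusters are known as the main patterning genes, whereas HoxB genes are known mostly from the trunk, hindbrain, blood and kidney. Hoxb genes also act in the tissue from which the limb buds form.

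The sites that were strongest in both replicates are printed first, because they carry the map that follows. A peak was called shared where 1 peak of the other library spanned 50% or more of its length, and 17 HoxB peaks were. Of the 5 with the highest mean signal percentile, 4 are given 5′ to 3′ on the plus strand of GRCm38, with the best match to the CTCF consensus in capitals. In the site between Hoxb9 and Hoxb8 the match is exact, and in the other 3 of these 4 sites it has 1 mismatch. The last sequence is the shared site just past the end of Hoxb13, on its Hoxb9 side, which also holds an exact match.
Hoxb5 start (chr11:96303176-96303325): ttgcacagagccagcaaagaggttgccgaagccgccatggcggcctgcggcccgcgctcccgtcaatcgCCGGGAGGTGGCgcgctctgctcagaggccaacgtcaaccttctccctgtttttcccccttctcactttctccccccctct
Hoxb9 to Hoxb8 (chr11:96278896-96279045): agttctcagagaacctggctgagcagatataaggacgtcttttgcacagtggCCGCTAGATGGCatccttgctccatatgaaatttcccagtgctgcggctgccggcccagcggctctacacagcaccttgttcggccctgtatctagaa
Hoxb6 intron (chr11:96294616-96294765): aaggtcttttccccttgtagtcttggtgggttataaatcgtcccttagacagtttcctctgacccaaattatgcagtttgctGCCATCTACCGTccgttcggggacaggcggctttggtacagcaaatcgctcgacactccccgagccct
Hoxb13 to Hoxb9 (chr11:96240336-96240485): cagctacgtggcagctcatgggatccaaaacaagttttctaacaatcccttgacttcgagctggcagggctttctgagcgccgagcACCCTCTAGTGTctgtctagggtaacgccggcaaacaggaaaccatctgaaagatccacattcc
past Hoxb13 (chr11:96198696-96198845): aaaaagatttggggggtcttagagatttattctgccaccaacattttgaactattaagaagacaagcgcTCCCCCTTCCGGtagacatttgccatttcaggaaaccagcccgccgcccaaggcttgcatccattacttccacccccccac

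The strongest shared site lay 11 bp before the first start of Hoxb5. Its signals were 108 in replicate 1 and 73 in replicate 2, and its mean percentile among all peaks of each replicate was 93.5 ± 1.83 (SD, n = 2). The next was an intergenic site 2860 bp before Hoxb8, with a replicate 1 signal of 103 and a replicate 2 signal of 70 (percentile 92.5 ± 1.81, SD, n = 2). An intergenic site 6442 bp before Hoxb4 had 94 units of signal in replicate 1 against 68 in replicate 2 (percentile 91.0 ± 0.668, SD, n = 2). These sites stood out alike in both libraries. The one in an intron of Hoxb6 had a replicate 1 signal of 89 and a replicate 2 signal of 63 (percentile 89.1 ± 1.04, SD, n = 2). The strongest site of the long stretch between Hoxb13 and Hoxb9 lay 30972 bp before Hoxb9, with 92 units of signal in replicate 1 against 50 in replicate 2. Its percentile, 85.2 ± 7.87 (SD, n = 2), differed more between the libraries than those of the 4 sites above it. All 5 sites lay in a hotspot at the ceiling value of 100 in both replicates. Of the 5, 1 was at the start of a HoxB gene.

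**Figure D1:**
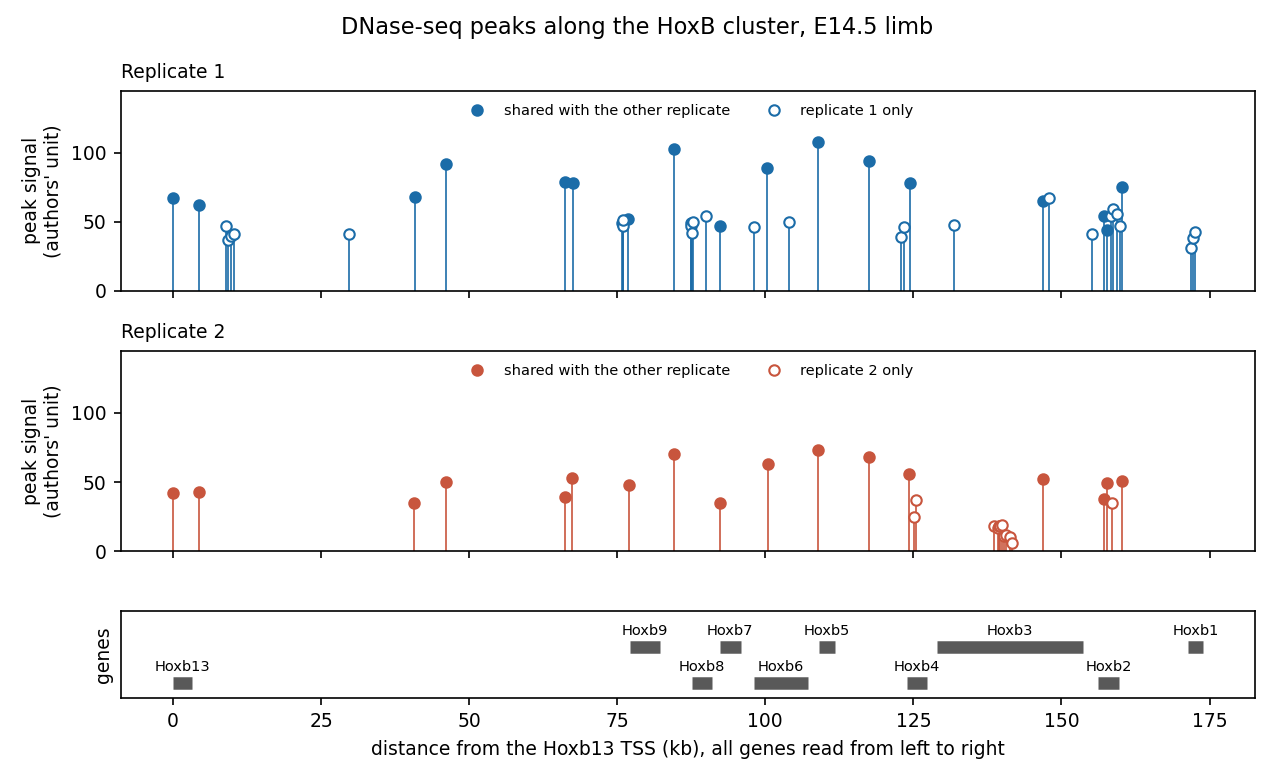
Peak signal (authors' unit) of every HoxB peak in replicate 1 (top) and replicate 2 (middle) against distance in kb from the Hoxb13 start, with filled points for shared peaks and open points for peaks of that replicate only. Gene bodies are drawn in the lowest panel. The tallest points, at 108 (replicate 1) and 73 (replicate 2), are the Hoxb5 start site, and the low run in replicate 2 lies in Hoxb3.

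All 10 HoxB genes had a peak of replicate 1 no further than 500 bp from any transcription start site (TSS) of the annotation, against 69.4% of all protein-coding genes. In replicate 2 it was 7 of 10, against 68.2% of all genes. A shared peak lay there for the same 7, Hoxb2, Hoxb3, Hoxb4, Hoxb5, Hoxb7, Hoxb9 and Hoxb13, against 65.1% of all genes, so that the members' share was near that of genes at large. Counting hotspots, replicate 1 gave 10 of 10 genes, against 69.8% of all, and replicate 2 gave 7 of 10, against 68.4%. Hoxb1, Hoxb6 and Hoxb8 had TSS peaks in replicate 1 alone. In bulk tissue, fewer cells with an open site and a site open less of the time in each cell cannot be told apart.

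The head-end genes differed among themselves. Hoxb1 (ENSMUSG00000018973.2, chromosome 11, 96365752 to 96368256), which sets the identity of a hindbrain segment, had 2 TSS peaks in replicate 1 with signals of 31 and 38 and none in replicate 2. The stronger lay at the percentile 42.7 of replicate 1, the lowest of the strongest TSS peaks of the 10 genes. Hoxb2 (ENSMUSG00000075588.6, 96350525 to 96354012), which acts in hindbrain and facial nerves, had 2 shared peaks, both at its inner start at 96351631 and none at its outermost start. The first had a replicate 1 signal of 54 and a replicate 2 signal of 38. The second had 44 in replicate 1 and 49 in replicate 2, and was the only one of the 17 shared sites with the higher signal in replicate 2. Hoxb3 (ENSMUSG00000048763.11, 96323326 to 96347930), a hindbrain and throat patterning gene, has 4 annotated starts, and only that at 96340945 had a peak, with 65 units of signal in replicate 1 against 52 in replicate 2. Hoxb4 (ENSMUSG00000038692.8, 96318267 to 96321638), known for the self-renewal of blood stem cells, had a shared peak 329 bp past its start, with 78 in replicate 1 and 56 in replicate 2. A second Hoxb4 peak, of signal 46, was called in replicate 1 alone.

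The middle genes held the strongest start and, in Hoxb6 and Hoxb8, starts with a peak in replicate 1 alone, like Hoxb1. Hoxb5 (ENSMUSG00000038700.4, 96303336 to 96306121), which bears on the level at which the shoulder forms, had the site of 108 and 73 given above. Hoxb6 (ENSMUSG00000000690.5, 96292476 to 96301569), expressed in flank and hindlimb mesoderm, had 1 TSS peak of signal 46 in replicate 1 and none in replicate 2, although the intronic site 2140 bp past its outer start was open in both. Hoxb7 (ENSMUSG00000038721.8, 96286623 to 96290162), used as a marker of the ureteric bud, had 1 shared peak with 47 in replicate 1 and 35 in replicate 2. Its percentile was 59.2 in each library, and its mean over the libraries was the lowest among the shared sites. In replicate 1 alone, the second shared site of Hoxb2 was lower, at 54.4. Hoxb8 (ENSMUSG00000056648.5, 96281905 to 96285315), which can set up posterior limb signalling when expressed at the front of the limb bud, had 4 overlapping TSS peaks in replicate 1 with signals of 42 to 50. Replicate 2 had no peak and no hotspot in the Hoxb8 TSS windows. The hotspots under the Hoxb8 peaks of replicate 1 reached a −log10 q of 1.97 at most.

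The tail-end genes were open in both libraries. Hoxb9 (ENSMUSG00000020875.9, 96271457 to 96276595), which with its paralogues is needed for the posterior signal of the forelimb bud, had 1 shared peak with a replicate 1 signal of 52 and a replicate 2 signal of 48. Hoxb13 (ENSMUSG00000049604.3, 96194316 to 96197447), a gene of the prostate and the tail tip, had 1 shared peak over its start with 67 in replicate 1 and 42 in replicate 2. By the percentile of the strongest TSS peak in replicate 1 the order was Hoxb5 (94.8), Hoxb4 (85.1), Hoxb13 (78.8), Hoxb3 (77.4), Hoxb2 (67.9), Hoxb9 (65.7), Hoxb8 (63.2), Hoxb7 (59.2), Hoxb6 (57.6) and Hoxb1 (42.7). In replicate 2 the order was Hoxb5 (92.2), Hoxb4 (84.3), Hoxb3 (81.4), Hoxb2 (78.8), Hoxb9 (77.8), Hoxb13 (70.8) and Hoxb7 (59.2). Hoxb5, Hoxb4 and Hoxb7 kept the first, second and last place among the 7 genes with a shared peak, while Hoxb13 stood above Hoxb3, Hoxb2 and Hoxb9 in replicate 1 and below them in replicate 2. Hoxb3, Hoxb2 and Hoxb9 followed each other in this order in both, but their ranges over the libraries overlap, 77.4 to 81.4 for Hoxb3, 67.9 to 78.8 for Hoxb2 and 65.7 to 77.8 for Hoxb9.

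**Figure D2:**
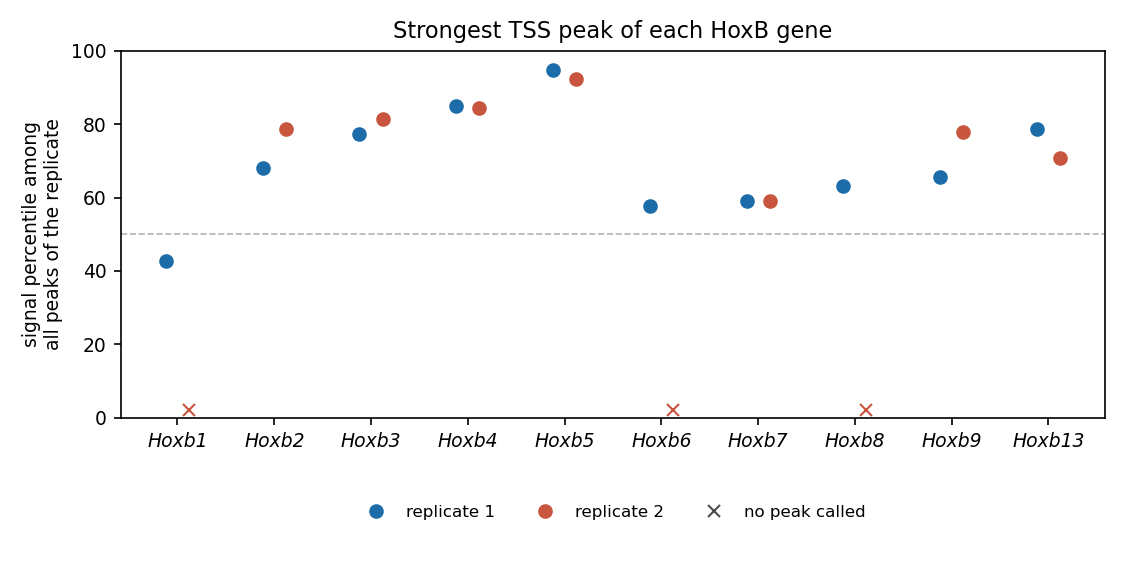
Percentile of the strongest TSS peak of each HoxB gene among all peaks of its replicate, in cluster order from Hoxb1 to Hoxb13, with the dashed line at 50. Crosses mark Hoxb1, Hoxb6 and Hoxb8, which had no TSS peak in replicate 2, and Hoxb5 is highest in both replicates at 94.8 and 92.2.

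Of the 17 shared peaks, 8 lay in TSS windows, 8 were intergenic and 1 was in an intron. The 27 peaks of replicate 1 that were not shared comprised 8 in TSS windows, 5 in exons, 3 in introns and 11 between genes. The 12 of replicate 2 that were not shared comprised 11 in introns and 1 in an exon. Exons of Hoxb2 held 3 of the exon peaks of replicate 1, with signals of 54 to 59. The strongest peak of 1 library only was in replicate 1, at 96342076 to 96342225 in an intron of Hoxb3 beside the start of the antisense gene Gm11536, with a signal of 67. In replicate 2 it was at 96319656 to 96319805 in an intron of Hoxb4, with a signal of 37. No single-library peak lay in a hotspot at the ceiling. Few of them touched a hotspot of the other library, 1 of 27 in replicate 1 and 1 of 12 in replicate 2, both in an exon of Hoxb2. Over the genome it was 16743 of 81042 single-library peaks in replicate 1 and 21860 of 68866 in replicate 2.

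The shared HoxB sites had a median mean percentile of 79.4, against 64.5 over all 127632 shared peaks. Signals in replicate 1 ranged from 44 to 108 and in replicate 2 from 35 to 73. Across the 17 sites, which are not replicates, the signals of the libraries had a Spearman's rho of 0.708, against 0.864 over all shared peaks. The HoxB sites spanned a narrower range of mean percentile, 59.2 to 93.5 against 0.0234 to 100. The median absolute difference in percentile between the libraries was 3.16 at the HoxB sites, against 7.27 over all shared peaks.

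The share of HoxB peaks that recurred was below that of all peaks of like signal in both libraries. In replicate 1, 38.6% of the HoxB peaks were shared, against 77.5% for peaks anywhere in the genome with a signal within 2 units of each. In replicate 2, 58.6% were shared, against 65.8% for peaks of like signal. HoxA peaks were shared in 57.7% (like signal 82.4%) in replicate 1 and 52.3% (77.3%) in replicate 2. HoxC gave 55.6% (84.4%) in replicate 1 and 53.6% (82.1%) in replicate 2, and HoxD gave 54.5% (85.2%) and 81.8% (84.1%). All 4 clusters were below their like-signal level in both libraries, HoxB with the others. No test was made of these shares, since neighbouring peaks of 1 library are not independent.

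**Figure D3:**
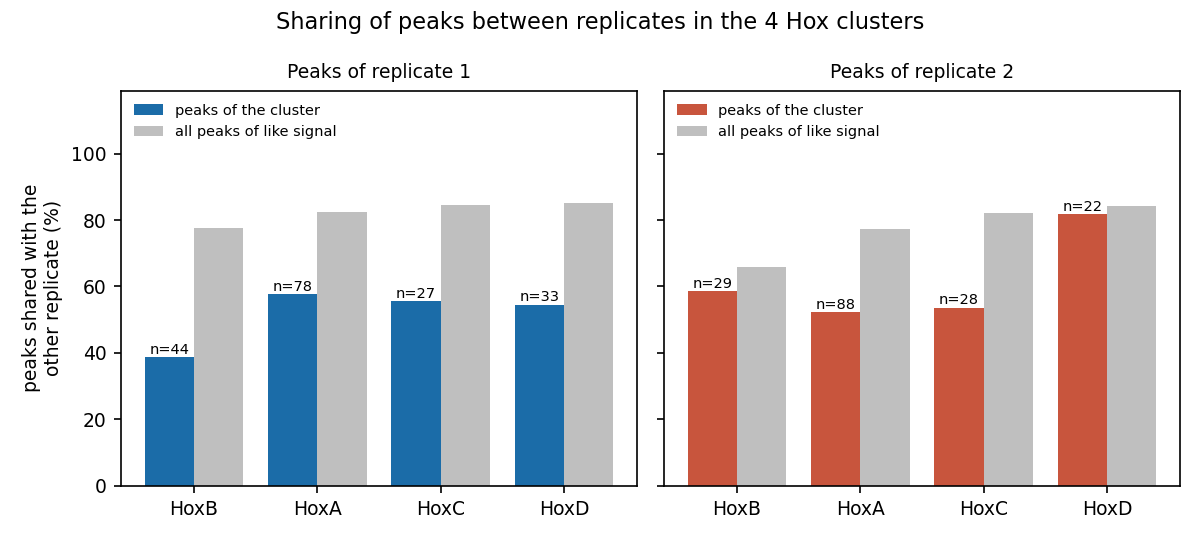
Percent of the peaks of each Hox cluster that were shared with the other replicate (coloured bars, n = peaks) beside the mean percent shared among all peaks of like signal (grey bars), for peaks of replicate 1 (left) and replicate 2 (right). The coloured bar is the lower one for every cluster, with the widest gap at HoxB in replicate 1, 38.6% against 77.5%.

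Hotspot values at HoxB peaks were low for the signal of the peaks in replicate 1, and less clearly so in replicate 2. In replicate 1, 34 of the 44 HoxB peaks (77.3%) lay in a hotspot below the median value of peaks of like signal, against 36.5% of all peaks. In replicate 2 it was 14 of 29 (48.3%), against 39.3% of all peaks, while 8 were above that median and 7 equal to it. The shares of all peaks are over every signal and are not matched to the HoxB signals. The Hoxb3 start peak of replicate 1 is an example. Its signal of 65 went with a −log10 q of 1.58, while peaks of that signal had a median at the ceiling of 100. The Hoxb9 peak had a −log10 q of 1.96 (replicate 1) and 4.37 (replicate 2), and the Hoxb2 windows reached 3.15 and 2.58. The hotspots at Hoxb7 had 1.62 in replicate 1 and 1.51 in replicate 2, near the lowest value called, and those at Hoxb13 had 3.85 and 4.08. Hoxb5 was at the ceiling in both replicates, and Hoxb4 was at it in replicate 2 but had 5.22 in replicate 1. In replicate 1 alone, the hotspot values at Hoxb1 and Hoxb6 reached 4.03 and 2.39. The shared HoxB sites were at the ceiling in 8 of 17 cases in replicate 1 and 7 of 17 in replicate 2, against 55.0% and 44.6% of all shared peaks. In replicate 1, 53.8% of HoxA, 66.7% of HoxC and 81.8% of HoxD peaks were below the like-signal median. In replicate 2 it was 64.3% of HoxC and 72.7% of HoxD peaks, while HoxA, at 37.5%, was near the 39.3% of all peaks.

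**Figure D4:**
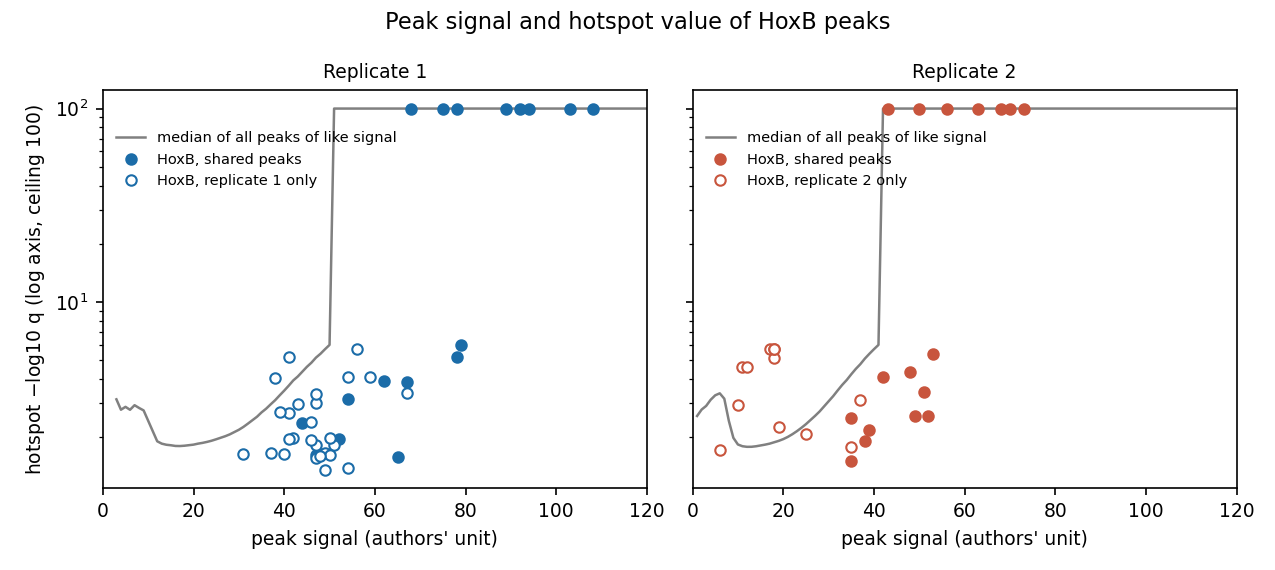
Hotspot −log10 q (log axis, ceiling 100) against peak signal (authors' unit) for HoxB peaks of replicate 1 (left) and replicate 2 (right), with filled points for shared peaks, open points for peaks of that replicate only, and a grey line for the median of all peaks of like signal. The line reaches the ceiling while many HoxB points of the same signal stay below 10, among them the Hoxb3 start peak at 65 and 1.58.

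A run of weak peaks in the long Hoxb3 gene was seen in replicate 2 alone, and was picked out after its values were seen. It comprised 9 peaks in 3.09 kb (96332876 to 96335965), all in an intron, with signals of 6 to 19 and percentiles of 0.424 to 12.99. Replicate 1 had no peak and no hotspot there. The 7 hotspots of the run covered 1399 bp, with −log10 q values of 1.72 to 5.70. Runs as dense and as weak numbered 25 in the whole of replicate 2, 23 of them with no peak in replicate 1, against 5 in the whole of replicate 1, 4 of them with none in replicate 2. The difference in library between these counts was not tested.

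Between Hoxb13 and Hoxb9 lies a stretch of 74.01 kb with no other protein-coding gene. Replicate 1 had 14 peaks there and replicate 2 had 6, all of them shared. They include the site past Hoxb13, with 62 units in replicate 1 and 43 in replicate 2, the strongest site of the stretch and the Hoxb9 start peak, both given above. Others were at 96235036 to 96235185, with 68 units in replicate 1 and 35 in replicate 2, and at 96260396 to 96260545 inside Gm53, with 79 and 39. These last sites had percentiles of 79.4 and 85.5 in replicate 1 and of 59.2 and 66.3 in replicate 2. The site at 96261696 to 96261845, at a start of Gm53, had 78 and 53 units and kept its rank, with percentiles of 85.1 and 82.2. The 96.8 kb between Hoxb9 and the end of Hoxb1 held 29 peaks in replicate 1 and 22 in replicate 2, with 10 shared. The longest gap without a shared peak was 36.2 kb, also in the stretch next to Hoxb13, and the second was 22.4 kb, between the shared sites of Hoxb4 and Hoxb3. Hotspots covered 5.35% of the interval in replicate 1 and 3.27% in replicate 2.

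Among the non-coding genes of the cluster, Gm53, a long intergenic RNA gene before Hoxb9, had the shared TSS peak just given. Hoxb3os, antisense to Hoxb3 and Hoxb2, had one with 75 in replicate 1 and 51 in replicate 2. Gm11536 and Mir10a had TSS peaks in replicate 1 only, and Mir196a-1 and Hoxb5os had none in either library. For both microRNA genes the annotated start is the first base of the hairpin, so where their transcription starts is not given. Mir10a lies before Hoxb4. A peak of replicate 1 with a signal of 39 (96317156 to 96317305) covered its whole hairpin of 110 bases, and replicate 2 had none there. The mature forms from RefSeq on GRCm38.p6 are printed with the seed, bases 2 to 8, in capitals, since both microRNAs are encoded among the HoxB genes and miR-196a is known to cleave the Hoxb8 transcript. The 4 seeds all differ.
mmu-miR-10a-5p: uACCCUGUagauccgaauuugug
mmu-miR-10a-3p: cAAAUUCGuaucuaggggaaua
mmu-miR-196a-5p: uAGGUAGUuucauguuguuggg
mmu-miR-196a-1-3p: cAACGACAucaaaccaccugau

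Shared HoxB sites were rich in CpG. The ratio of observed to expected CpG dinucleotides had a median of 0.789 in the 17 shared sites, against 0.296 in all shared peaks, and was above 0.6 in 13 of 17 (76.5%) against 20.05%. The GC content differed less, 54.7% in the HoxB sites and 50.7% in all shared peaks. The shared sites of HoxA, HoxC and HoxD had medians of 0.765, 0.824 and 0.778, so that the CpG richness was common to the 4 clusters. Around the starts of the genes, taking 500 bp on each side and the highest start of each gene, Hoxb5 (0.877), Hoxb9 (0.853), Hoxb7 (0.834), Hoxb6 (0.802) and Hoxb8 (0.799) were above 0.6. Hoxb3 (0.572), Hoxb1 (0.549), Hoxb4 (0.494), Hoxb13 (0.450) and Hoxb2 (0.399) were below it. The 5 of 10 HoxB genes above 0.6 compare with 11527 of all 21938 genes, and the median was 0.686 for the HoxB genes and 0.627 for all genes, so the gene starts were near the background. The genes without a shared peak, Hoxb1, Hoxb6 and Hoxb8, were thus in both groups. The Hoxb6 value is that of its start at 96299171, which had no peak in either library. Its start at 96292476, which had the replicate 1 peak, had a ratio of 0.372.

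**Figure D5:**
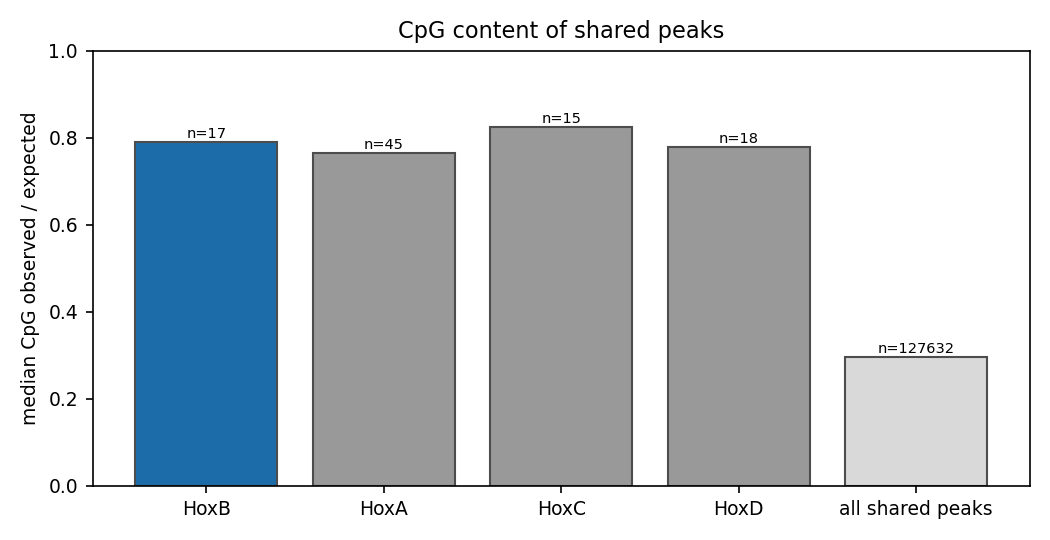
Median ratio of observed to expected CpG dinucleotides in the shared peaks of the HoxB, HoxA, HoxC and HoxD clusters and in all shared peaks (n = peaks). The 4 Hox bars lie between 0.765 and 0.824, and the bar of all shared peaks is at 0.296.

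Sequence patterns were searched on both strands over the whole 150 bp of each peak. The exact CTCF consensus was in 2 of the 17 shared HoxB sites (11.8%), against 10.4% of all shared peaks. With up to 1 mismatch, a setting added after the sequences were seen, it was in 8 of 17 (47.1%), against 27.0% of all shared peaks, and in 15.6% of HoxA, 6.67% of HoxC and 16.7% of HoxD shared peaks. Over all HoxB peaks of each library, shared or not, the shares were nearer to the background, 11 of 44 in replicate 1 (25.0%, against 23.1% of all its peaks) and 9 of 29 in replicate 2 (31.0%, against 21.7%). The 4 sites printed above from the strongest 5 are among the 8, as their capitals show. CCAAT, the site of NF-Y, was in 5 of 17 (29.4%), against 20.1%. This was below the other Hox clusters, where 37.8% of HoxA, 46.7% of HoxC and 61.1% of HoxD shared peaks held CCAAT. The MEIS letters TGACAG were in 2 (11.8% against 10.8%), GGGCGG of SP and KLF proteins in 1 (5.88% against 13.6%), and TAATTA and CAGCTG in none (2.40% and 18.1% of all shared peaks). GGGCGG was in 22.2% of HoxA, 20% of HoxC and 16.7% of HoxD shared peaks, and TGACAG in 6.67%, 0% and 0%. With 17 sites, 1 site more or less moves each share by 5.88 percentage points.

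Letters that HOX proteins are known to bind were found at HoxB starts. The HOX-PBX letters TGATTNAT were in 1 of the 17 shared sites at the coordinates of replicate 1 (5.88%, against 2.15% of all shared peaks). In replicate 1 they were in 1 of the 44 HoxB peaks (2.27%, against 2.17% of all its peaks). They were in 5 of the 29 peaks of replicate 2 (17.2%, against 2.34% of all its peaks). These were the peaks at the starts of Hoxb3, Hoxb2 and Hoxb9 and 2 of the Hoxb3 run. At Hoxb2 the replicate 1 peak is shifted so that it leaves the match out, and at Hoxb9 it ends within the match. In a window of 250 bp around each peak centre, 3 of the 17 shared sites held the HOX-PBX letters (17.6%, against 3.56% of all shared peaks). The other clusters were above all shared peaks too. At 150 bp and at 250 bp alike, 4.44% of HoxA, 6.67% of HoxC and 11.1% of HoxD shared peaks held the HOX-PBX letters. The posterior HOX and CDX letters TTTATNG were in 1 of the 17 shared sites (5.88%, against 8.13% of all shared peaks) and in 3 of the 29 HoxB peaks of replicate 2 (10.3%, against 8.28%). They were in 7 of the 44 HoxB peaks of replicate 1 (15.9%, against 8.55%), 4 of them at Hoxb8, where the peaks overlap and share matches. In the other clusters, TTTATNG was in 15.6% of HoxA, 26.7% of HoxC and 11.1% of HoxD shared peaks. The first Hoxb8 peak held 3 matches, and 82 of all 208674 peaks of replicate 1 (0.0393%) held 3 or more. In replicate 2, the Hoxb4 intron peak at 96319316 to 96319465 also held 3 and is not printed. The sites are printed on the plus strand, with TTTATNG in capitals at Hoxb8, and a HOX-PBX and a TTTATNG match that overlap in 1 run of capitals in Hoxb3.
Hoxb8 start, replicate 1 (chr11:96281696-96281845): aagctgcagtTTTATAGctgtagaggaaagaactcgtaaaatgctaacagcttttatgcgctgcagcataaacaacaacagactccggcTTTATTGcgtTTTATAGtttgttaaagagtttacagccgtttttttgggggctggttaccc
Hoxb3 intron, replicate 2 (chr11:96333616-96333765): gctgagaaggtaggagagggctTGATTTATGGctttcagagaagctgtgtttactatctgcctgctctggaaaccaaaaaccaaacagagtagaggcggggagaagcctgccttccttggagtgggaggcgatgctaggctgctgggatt

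At the Hoxb3 start, the peak at 96341136 to 96341285 was identical in both libraries and held the letters of a retinoic acid response element of the DR5 type, a pair of half-sites 5 bases apart, at 96341236 to 96341252. Its half-sites are in capitals. The HOX-PBX match TGATTTAT lay 21 bases before it at 96341207 to 96341214, and a TTTATNG match overlaps that one.
Hoxb3 DR5 (chr11:96341236-96341252): GGTTCAagaagAGTTCA
DR5 elements were in 112 of the 127632 shared peaks (0.0878%), and 4 of those also held HOX-PBX letters. HoxA had a DR5 element in 1 of its 45 shared peaks (2.22%), and HoxC and HoxD had none. The related DR2 element was in none of the 17 HoxB sites, against 0.0580% of all shared peaks. A match of letters is a description of the sequence and shows no binding.

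The HoxB cluster was set beside the other Hox clusters, each with 5 kb on both sides. HoxB had 7 of 10 genes with a shared TSS peak, HoxA 11 of 11, HoxC 4 of 9 and HoxD 9 of 9. Per 100 kb, HoxB held 9.24 shared peaks, against 39.0 in HoxA, 11.9 in HoxC and 16.8 in HoxD. HoxB is the longest of them at 183.9 kb, against 115.3 kb for HoxA, 125.8 kb for HoxC and 106.8 kb for HoxD. Hotspots covered 5.30% of HoxB in replicate 1 and 3.23% in replicate 2, against 21.5% and 24.1% of HoxA, 5.63% and 5.07% of HoxC, and 6.80% and 4.65% of HoxD. The paralogues of the HoxB genes without a shared peak were mixed. Hoxd1 had one while Hoxb1 had none, Hoxa6 and Hoxc6 had one while Hoxb6 had none, and Hoxd8 had one while Hoxb8 and Hoxc8 had none.

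Genes that work with the cluster were mostly open. All 9 genes of PBX, MEIS and PKNOX cofactors had a shared TSS peak, and 15 of 18 genes known to regulate Hox genes did, all but Cdx1, Cdx2 and Cdx4. The share over all genes is the 65.1% given above. Ttll6, the protein-coding neighbour beyond Hoxb13, had 2 shared TSS peaks, and Skap1, beyond Hoxb1, had none. Among markers, a shared TSS peak was present for limb mesenchyme in 10 of 10 genes, cartilage in 2 of 4, muscle in 3 of 4, epidermis in 3 of 4, endothelium in 2 of 4, Schwann cells in 1 of 4, neurons in 3 of 4, spinal cord progenitors in 3 of 4 and blood in 0 of 5. Counted in each library by itself, cartilage, muscle and epidermis had a TSS peak in 4 of 4 genes in both. Endothelium had one in 3 of 4 and Schwann cells in 2 of 4 in both. Neurons had 3 of 4 in replicate 1 and 4 of 4 in replicate 2, and spinal cord progenitors the reverse. Blood had 0 of 5 in replicate 1 and 1 of 5 in replicate 2. The part of these other cell types in the HoxB peaks was not tested.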

How the data were processed

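DNase-seq was measured in 1 group of 2 biological replicates of limb at embryonic day 14.5. Per the deposited text files, the authors called the peaks and hotspots of each library separately from its filtered alignments on mm10. No source used here names the aligner, the caller or its settings. The signal per peak was deposited by the authors as a whole number of unknown scale, so it was compared between libraries by percentile. The hotspot −log10 q deposited by the authors has a ceiling of 100. No read counts were used, so the depth is unknown, a missing peak means only that none was called, and no interval or limit from depth is given. Whether the replicates are separate sets of embryos is not settled by the labels, and the spread between them may be technical.

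Peaks off chromosomes 1 to 19, X and Y were set aside, which left 208674 for replicate 1 and 196593 for replicate 2. Starts came from GENCODE release M21 on GRCm38, which is the build of the files. A peak was at a TSS where any base lay within 500 bp. Percentile is the mean rank of a signal among all peaks of its library. Shared peaks are placed at the coordinates of replicate 1. Sequences were read from GRCm38.p6. With 1 group no test between conditions was made, and results are counts and medians beside those of all peaks or genes. The named genes are all 10 members, the non-coding genes with a TSS peak, the neighbours, the cofactor, regulator and marker lists, and the peaks that lead by signal. The members and lists were chosen with earlier results of these data known. The overlap and window steps were checked on simulated regions. Python 3.11.15, numpy 2.4.6 and pandas 2.3.3 were used. The alternatives tried were an overlap of 1 bp, the 50000 strongest peaks, hotspots, windows of 250 and 1000 bp around each TSS, only the outermost start, each library by itself, the coordinates of replicate 2, an interval drawn from the annotation, and a motif window of 250 bp. A CTCF match with up to 1 mismatch was added after seeing the data. Some items are not reported here.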

Additional observations from a re-analysis of the deposited data

How the results depend on the processing

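Of the values that summarise the HoxB cluster and the other Hox clusters, 44 stayed close under an alternative and 25 did not. Among the 50000 peaks of highest signal in each replicate, 3 HoxB genes kept a shared TSS peak (Hoxb3, Hoxb4 and Hoxb5), and 9 HoxB peaks were shared, 69.2% of those of replicate 1, of which 33.3% were in TSS windows, with a median percentile of 85.2. HoxA then had 26 shared peaks, and HoxC had 8 with 2 genes open. With each library alone, the genes open numbered 7 to 10 for HoxB, 5 to 7 for HoxC, 11 for HoxA and 9 for HoxD. The peaks numbered 29 to 44 for HoxB, 78 to 88 for HoxA, 27 to 28 for HoxC and 22 to 33 for HoxD. The HoxB share in TSS windows was then 27.6% to 36.4%, the median percentile 63.2 to 64.7 and the median CpG ratio 0.656 to 0.741. An overlap of 1 bp gave 18 shared HoxB peaks and a median percentile of 77.7. The share in TSS windows was 35.3% with a window of 250 bp, which lost Hoxb4, and 29.4% with the outermost start only, which lost Hoxb2 and Hoxb3. At the coordinates of replicate 2, 58.6% of the HoxB peaks were shared. Of the counts of single genes and of sequence patterns, 80 stayed within 1.5 times and 31 did not. The depth of the libraries is unknown, so a site missing from 1 list is one where no peak was called, not one shown to be closed. No paired analysis was possible because there was only 1 group.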
